A study of Homo sapiens with 3 samples.

Results

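The comparison set the transcripts of THP-1 cells given phorbol myristate acetate and kept in culture until the time labelled 8 days against those of undifferentiated THP-1 cells. THP-1 is an established cell line from a human monocytic leukemia, and it grows in suspension as precursors of monocytes. Phorbol myristate acetate (PMA) is a plant-derived ester that takes the place of diacylglycerol and activates protein kinase C. The series held 3 arrays, 1 each for undifferentiated cells, PMA 3 days and PMA 8 days, and the comparison used 2 of them. All 54613 probe sets that were not manufacturer's controls, of 54675 in all, were taken.

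By the labels' protocols all cells were grown in medium with 10% foetal bovine serum, and PMA was used at 200 nM. The PMA 8 days culture was in PMA for 72 h and then for 5 days in medium without it. The PMA 3 days culture was in PMA for 24 h and then without it for 3 days. Before RNA was taken, medium with 2% serum was put on for 16 h, and the protocol does not say whether the undifferentiated cells had this change too. Cells were in multi-well plates, and how many wells made up a sample, and how long the undifferentiated cells were kept in them, is not given in the sources used here. PMA, time in the plate, cell attachment and the change of serum therefore cannot be told apart in the comparison. The model is 1 leukemia line, so no primary monocyte or macrophage was measured.

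There were no replicates: each value comes from 1 array, so conditions could not be tested against each other and no error across cultures is known. Signals are MAS5 signal units on a linear scale. Where 3 signals are given for a gene they are in the order undifferentiated, PMA 3 days and PMA 8 days. The PMA 3 days signal is given beside the others, and no gene was called from it. Some passages order or count signals between the PMA arrays. The PMA cultures differed both in time with PMA and in time without it, so such an order is not that of a time course alone. Signals below a floor of 149.8, which is the median value across the 3 arrays, were raised to it, and log2 ratios are PMA 8 days over undifferentiated. Higher and lower mean a difference of 2-fold or more. Where 1 array was at the floor the fold is a lower bound, written "at least". A median over a list counts such genes at their bound.

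PMA has long been used to turn dividing leukemia cells of the monocyte line into attached, macrophage-like cells. In normal development, granulocyte and monocyte precursors make granule proteins, then shut down the genes for these and leave the cell cycle as they mature. Macrophages take up particles and lipoproteins through scavenger receptors, break them down in lysosomes, remodel the matrix and send out chemokines.

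The label was checked on genes of the monocyte line, and CD33, which was also planned for this check, is not given here. LYZ (lysozyme) gave signals of 62439, 36591 and 23242, ITGAM (the CD11b integrin chain) 5544, 13677 and 16049.5, CD4 1164, 1131 and 1124 and CSF1R (the receptor for macrophage colony-stimulating factor) 1469, 8209.9 and 6801. These 4 were above the floor on all 3 arrays. The probe set for SPI1, which encodes the myeloid factor PU.1, was below the floor in undifferentiated cells and just above it on both PMA arrays. The undifferentiated and PMA 8 days arrays both had a trimmed mean signal of about 1000. Above the floor were 51.4% of probe sets on the undifferentiated and 50.1% on the PMA 8 days array. Neither measure says much about quality, since signals appear scaled to a common mean and the floor is the median of these arrays. RNA breakdown raises the signal of 3′ over 5′ probe sets: this ratio was 1.37 undifferentiated and 1.49 at PMA 8 days for actin, and for GAPDH it was 1.16 and 1.12. Spiked poly-A controls, 24 probe sets, had a median log2 ratio of 0.02.

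Of 19775 genes with a probe set of their own, 13582 exceeded the floor on either array compared and 6193 on neither. At PMA 8 days 1320 of the 13582 genes (9.72%) were higher and 1140 (8.39%) were lower, so that 18.1% were past 2-fold. These shares are the background for the counts of each list below. Counted by probe set, 2570 of 30882 (8.32%) were higher and 2958 (9.58%) lower. The calls were 446 higher and 234 lower at 4-fold or more, 176 and 69 at 8-fold, 76 and 18 at 16-fold and 34 and 6 at 32-fold. Higher genes were 53.7% of the calls at 2-fold, and outnumbered the lower ones at each larger step. Over all genes the median log2 ratio was -0.07. Of the medians of all 66 gene lists 23 moved by more than 0.5 under another choice of filter, floor or probe set. Of the higher genes 323 had started below the floor, and of the lower genes 172 had ended there. In RNA from a whole culture, fewer cells that use a gene and less RNA of it per cell cannot be told apart.

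**Figure D1:**
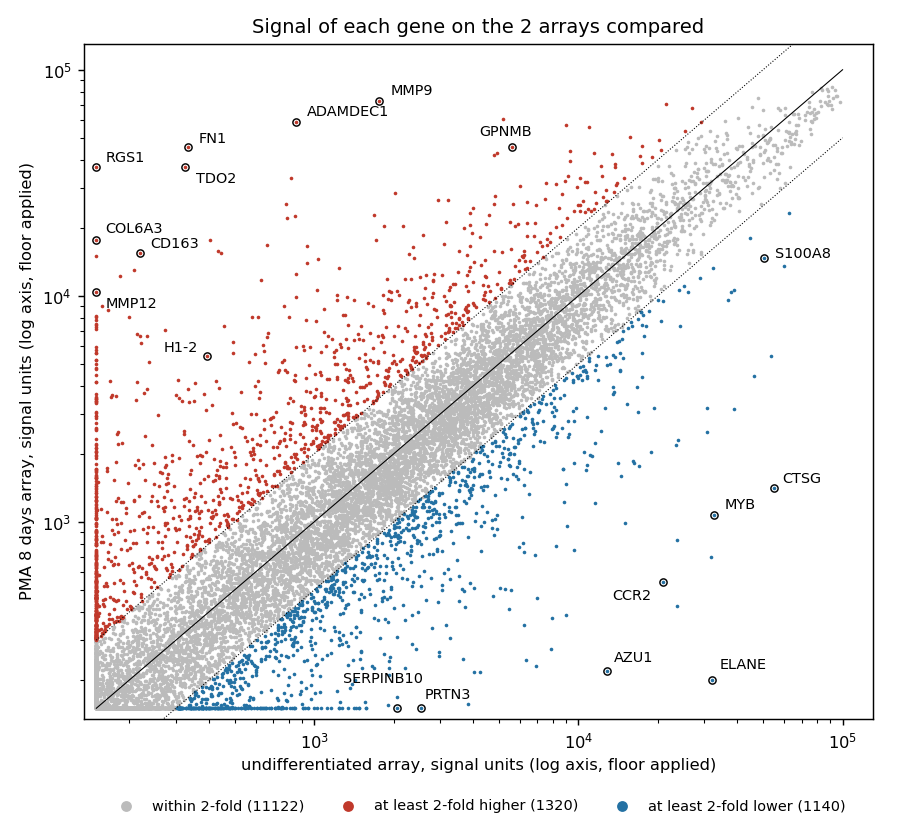
Each point is 1 of 13582 genes, with its signal on the undifferentiated array on the x axis and on the PMA 8 days array on the y axis, both on log axes with signals below the floor of 149.8 raised to it; red and blue points are the 1320 higher and 1140 lower genes, the solid line marks equal signals and the dotted lines 2-fold. The named genes FN1, TDO2, MMP9 and RGS1 lie far above the line and ELANE, CTSG, MYB and CCR2 far below it.

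Several of the genes with the largest measured increases, though not all, encode secreted, surface or adhesion proteins. FN1 encodes fibronectin, a matrix glycoprotein that integrins bind, and its signals were 333, 35009.7 and 45488, 137-fold higher. TDO2, an enzyme that breaks down tryptophan, gave 325, 24256 and 37188. ADAMDEC1, a secreted metalloprotease of macrophages, gave 856, 61553 and 58895, and the gelatinase gene MMP9 gave 1765, 66826 and 72969. FERMT2, which encodes the integrin activator kindlin-2, was near the floor without PMA and gave 157, 9538 and 8969.8. ABCC3, an exporter of organic anions, gave 166, 10629.9 and 8681, NT5E, which makes adenosine outside the cell, 199, 4668 and 8062, and PHLDA1 184, 7803 and 12256. For all of these the undifferentiated signal was the lowest of the 3 by far. Among genes that started below the floor the brightest were RGS1, a brake on G-protein signalling (109.7, 26498 and 36970.0, at least 247-fold higher), the collagen gene COL6A3 (92.5, 13938 and 17588), the myosin light chain kinase gene MYLK (132, 11769 and 14992), the macrophage elastase gene MMP12 (57.8, 8913 and 10415) and GBP1 (31.8, 9291 and 8137).

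Macrophage markers were higher in 20 of 26 measured members and lower in 2, with a median log2 ratio of 2.07. CD163, the receptor that clears haemoglobin bound to haptoglobin, gave signals of 218, 26654 and 15456, and CD14, the co-receptor for endotoxin, gave 849.8, 34195 and 22449. Both were highest on the PMA 3 days array and still 70.8-fold and 26.4-fold above undifferentiated cells at PMA 8 days. The opposite order held for LPL, which releases fatty acids from lipoproteins (2658, 5681 and 12302), and for VSIG4, a complement receptor of tissue macrophages (165, 545 and 1104). GPNMB, a glycoprotein of lysosomes and the cell surface, was the brightest marker at 5595, 55412 and 45572. MERTK, a receptor for dying cells, gave 567, 3964 and 5108, MARCO, a scavenger receptor, 109, 1028 and 1089.9, and the chitinase gene CHIT1 25.2, 1197 and 1370.0. ADGRE1, the human counterpart of the mouse marker F4/80, gave 1309, 6182 and 1384, which is high on the PMA 3 days array alone. The 2 markers that were lower were the folate receptor gene FOLR2 (from 429 to below the floor) and the Fc receptor gene FCGR2A (6297, 4652 and 2607). FCGR1A, TIMD4 and C1QB were below the floor on both arrays compared.

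Scavenger and phagocytic receptors, which overlap with the macrophage markers, had 13 higher and no lower member among 24 (median 1.21). With members below the floor on both arrays counted at 0, the median was 0.00. The integrin chain gene ITGB5, which takes part in uptake of dying cells, gave 631, 10029.8 and 11784 and MSR1, the class A scavenger receptor, 86.5, 3944 and 2588. CD36, which binds oxidised lipoproteins, was already at 6366 in undifferentiated cells and reached 26126. The receptor for high-density lipoprotein, SCARB1, (log2 ratio -0.42) and the receptor tyrosine kinase gene AXL (-0.19) stayed within 2-fold.

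Lysosome genes were higher in 26 of 44 measured members and lower in none, with a median of 1.14. The cathepsins, proteases that work in acid, had the largest ratios of the list. CTSK gave 854, 18852 and 12514, CTSD 595, 5137 and 5513, CTSL 4808, 46486 and 41982 and CTSB 10952, 57455 and 55748. The 5 probe sets of CTSB gave log2 ratios of 2.35 to 3.05. The brightest gene of the list was PPT1, an enzyme that takes fatty acids off proteins, at 87638, 79190.5 and 82335. Among enzymes that break down glycans and sulfated sugars, SGSH gave 270.0, 1643 and 1286, MANBA 2408, 9101 and 5631 and NEU1, the lysosomal sialidase, 3219.6, 10949 and 8286. Among those for lipids, LIPA, which frees cholesterol from its esters, gave 17149.7, 43121 and 41402 and the acid ceramidase gene ASAH1 17418, 52425 and 46052. Others stayed within 2-fold, such as GAA (log2 ratio -0.65), GUSB (-0.37) and the membrane proteins LAMP1 (0.31) and LAMP2 (0.21). Subunits of the vacuolar ATPase, the proton pump that acidifies these organelles, were higher in 6 of 18, lower in none, and all 18 log2 ratios were above 0 (median 0.81). ATP6AP1 gave 6409, 21682 and 18422, and the osteoclast-type subunit gene ATP6V0D2 gave 166, 463 and 735.

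Of transcription factors of lysosomal genes, which bind the letters CACGTG, MITF gave 799.7, 8939 and 8047 and TFE3 1838, 4736 and 4139, while TFEB had a log2 ratio of 0.12. CACGTG, which reads the same on both strands, was searched from 250 bases before to 50 after the start in RefSeq promoters (GRCh38.p14). It was in 8 of 31 lysosome genes with a promoter there (25.8%) and in 4 of 12 ATPase subunit genes (33.3%), against 7.27% of all 27305 promoters and 9.62% of promoters of the genes compared. A pair of them is shown up to the start, with the motif in capitals, because both genes were higher. CTSD is at chr11:1763928-1764047, minus strand, and NEU1 at chr6:31862822-31863007, minus strand.
CTSD: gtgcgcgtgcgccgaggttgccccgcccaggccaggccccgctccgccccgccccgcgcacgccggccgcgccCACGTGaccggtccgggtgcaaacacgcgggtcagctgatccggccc
NEU1: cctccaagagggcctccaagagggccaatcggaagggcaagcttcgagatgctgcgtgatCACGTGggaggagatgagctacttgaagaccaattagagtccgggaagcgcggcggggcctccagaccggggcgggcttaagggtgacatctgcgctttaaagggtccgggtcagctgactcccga
The motif starts 47 bases before the start of CTSD and 126 before that of NEU1. A match is a description of the letters and not a measured site.

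Matrix genes and matrix proteases had 25 higher and 2 lower among 40, with a median of 1.56 (0.58 by the second brightest probe set). Among structural members, COL6A1 gave 1216, 11576 and 10063 and COL6A2 had a log2 ratio of 0.67, beside the large increase of the third chain gene COL6A3. LAMB3, a laminin chain of epithelial basement membranes, gave 228, 1731 and 2407, and SPARC, which binds collagen, 106, 4144 and 2114. SPP1 (osteopontin), a secreted ligand of integrins, was among the brightest transcripts of all at 5195, 46906 and 60401. The proteoglycan gene VCAN went the other way at 23914, 5152 and 2307, 10.4-fold lower, as did the collagen gene COL8A2 (725, 117 and 167). Of the matrix metalloproteinases, MMP1 (interstitial collagenase) gave 60.8, 3996 and 7536, MMP7 (matrilysin) 127, 1966 and 5738, MMP8 (a collagenase first known from neutrophils) 9.20, 6957 and 7799 and MMP10 (stromelysin-2) 41.8, 1849 and 2193. None of these 4 was above the floor in undifferentiated cells, and each had its highest signal at PMA 8 days. Their inhibitor TIMP1 also had its highest signal there (9285, 24460.2 and 43831), as did TIMP3 (972, 1516 and 3197). The sheddase genes ADAM10 (-0.16) and ADAM17 (0.55) had log2 ratios within 2-fold, whereas ADAM9 gave 4905, 46777 and 42981.

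Coagulation and plasminogen genes were higher in 8 of 13, lower in 1 (median 1.11). PLAU (urokinase, which makes plasmin) gave 2019.5, 28169 and 28418 and its receptor PLAUR 2655, 9186 and 6656. Inhibitors were among the largest changes: TFPI, which blocks the start of coagulation, gave 219, 10268 and 6664, TFPI2 3.89, 5345 and 8077 and the broad protease inhibitor gene A2M 208, 11359 and 13015. Thrombomodulin, THBD, gave 4438, 6845 and 9595. F13A1, the subunit that cross-links fibrin, was lower at 7925, 441 and 376, and the tissue factor gene F3 had a log2 ratio of -0.18.

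Of 40 integrin and focal adhesion genes 15 were higher and 1 lower (median 0.72). Integrins link the matrix outside to actin inside. Among their chains, ITGB8 gave 9.57, 1516 and 2597, ITGB7 614, 4084 and 4206, ITGA6 492, 1978 and 2714 and the common chain ITGB1 20172, 46146 and 48729. Others stayed within 2-fold, such as ITGAL (log2 ratio -0.46), ITGA4 (0.23) and ITGA5 (-0.08), and ITGA7 was lower (917, 95.5 and 379). On the inner side, vinculin, VCL, gave 8927, 29459.8 and 32321, PTK2 (focal adhesion kinase) 585, 1975 and 1904 and parvin alpha, PARVA, 766, 2034 and 2327. Of the kindlins FERMT2 was far higher, while FERMT3, the form of blood cells, had a log2 ratio of 0.52.

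Actin, myosin and tubulin genes had 12 higher and 2 lower among 35 (median 0.57). After MYLK the largest increases were in the tropomyosins TPM2 (2373, 16824 and 16489.9) and TPM4 (1062, 5302 and 5624), the tubulin gene TUBB2A (336, 2425 and 2291), the motor MYO1E (290.3, 1229.8 and 1973) and the regulatory light chain MYL9 (525, 2365 and 2637). All of these were low in undifferentiated cells relative to both PMA arrays. Actin itself, ACTB, had a log2 ratio of -0.17 and cofilin, CFL1, 0.45. PDLIM1, an adaptor at actin fibres, was 10.5-fold lower (8205, 689 and 779) and the non-muscle myosin chain MYH10 3.15-fold lower (1503, 329.9 and 478). Tetraspanins were higher in 9 of 21, lower in 1 (median 0.82, or -0.14 by the second brightest probe set), with CD9 at 1663, 10344 and 8989 and CD37 lower at 2333, 1219 and 743.

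Osteoclast and cell fusion genes, many of them in other lists too, had 11 higher and 1 lower among 15 (median 1.5). DCSTAMP, a membrane protein needed for cells to fuse, gave 4.39, 1077 and 2926, and SIGLEC15 1093, 5749.7 and 6918. Both had their highest signal at PMA 8 days. CA2, a carbonic anhydrase, was lower at 60185, 13796 and 13552. NFATC1, the main factor of the osteoclast line, had a log2 ratio of 0.40.

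**Figure D2:**
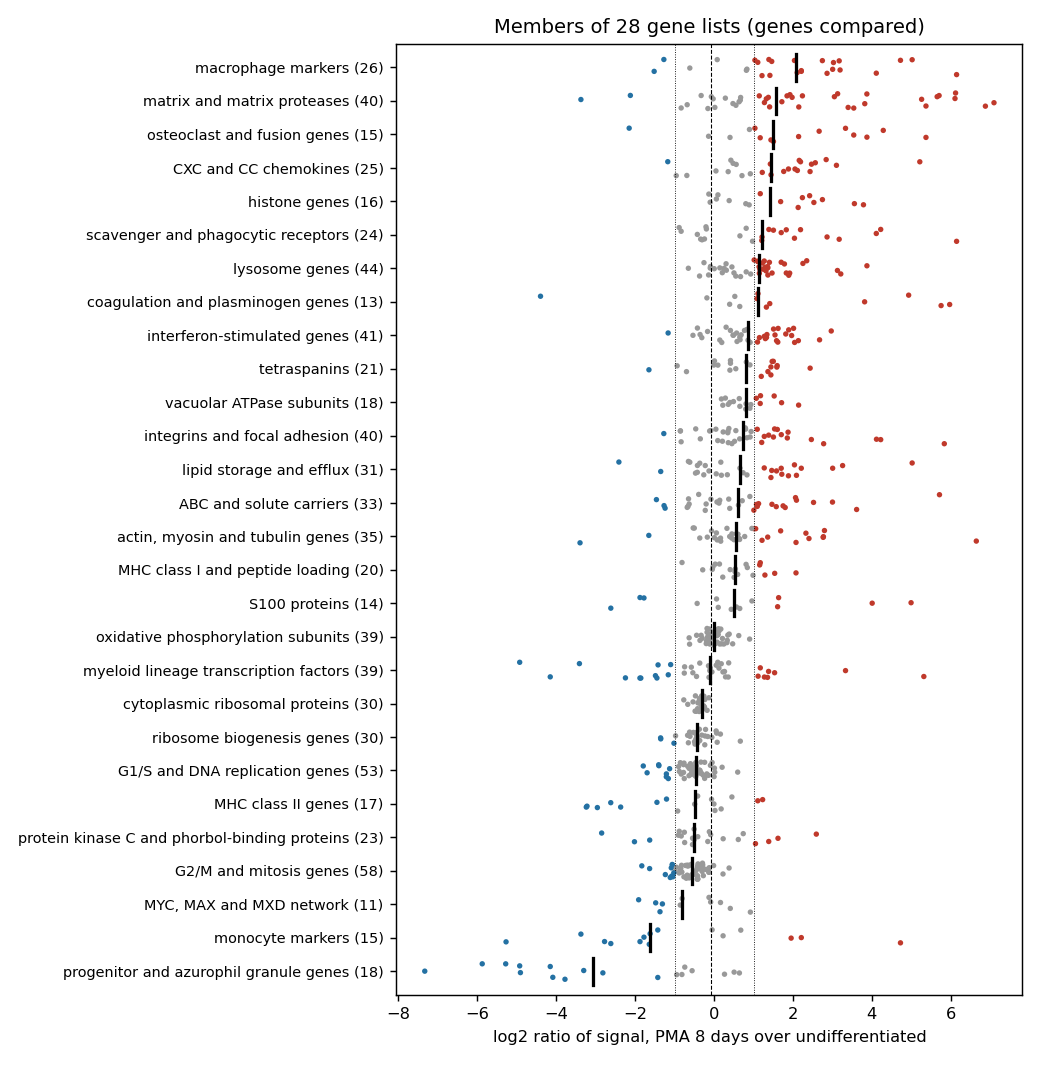
Log2 ratios of PMA 8 days over undifferentiated (x axis) for the measured members of 28 gene lists (y axis, number of genes compared in brackets); each point is a gene, red at 2-fold higher or more, blue at 2-fold lower or more, the thick bar is the list's median, the dashed line the median of all genes (-0.07) and the dotted lines 2-fold. Medians run from -3.06 for progenitor and azurophil granule genes to 2.07 for macrophage markers, and ribosomal proteins and oxidative phosphorylation genes lie close to the middle.

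Lipid storage and efflux genes were higher in 13 of 31, lower in 2 (median 0.66). The fatty acid carriers FABP4 and FABP5 gave 784, 32219 and 25441 and 21373, 60788 and 70247. The droplet coat gene PLIN2 gave 9138, 43589.9 and 33749.8, the monoglyceride lipase MGLL 383, 2458 and 3661, the cholesterol exporter ABCA1 3903, 18041 and 16591 and APOE, the apolipoprotein that carries it off, 388, 2682 and 3116. ABCG1, a partner of ABCA1 in efflux, had a log2 ratio of -0.22, and the nuclear receptors NR1H3 (-0.36) and PPARG (0.06) were within 2-fold. MYLIP, which sends LDL receptors to degradation, was lower at 4930.2, 369 and 927, and the receptor gene VLDLR at 6211, 2425 and 2434. In cholesterol and fatty acid synthesis 2 of 25 genes were higher and 5 lower (median -0.49). The lower ones included the regulator SREBF1 (1777, 446 and 639.9), the desaturase FADS2 (1484, 457 and 454) and INSIG1 (15939.9, 9291 and 7367), and the higher ones were ME1, which makes NADPH (3524, 15870.4 and 15861), and SQLE (12805, 20413 and 26154).

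Among eicosanoid enzymes 6 of 19 were higher and 3 lower (median 0.01, or 1.73 by the second brightest probe set). PTGS1, the constitutive cyclooxygenase, gave 3088, 15634 and 16956 and thromboxane synthase, TBXAS1, 549.5, 3498 and 2366. PTGS2, the inducible form, had a log2 ratio of 0.18. In the leukotriene branch ALOX5 gave 4809, 36015 and 25398, its partner ALOX5AP had a log2 ratio of -0.20 and LTC4S was lower at 1624, 562 and 702. In tryptophan, adenosine and purine signalling 4 of 24 were higher and 6 lower (median 0.03). Beside TDO2, the other enzyme of that step, IDO1, had a log2 ratio of 0.07. NT5E and ENTPD1 act in sequence to turn ATP outside the cell into adenosine, and ENTPD1 was lower at 1969.7, 593 and 665. The purine receptors P2RY8 (17021, 1402 and 1770.5), P2RY2 (1518, 60.7 and 226) and P2RX7 (3432, 1586 and 1161) were lower and the adenosine receptor ADORA3 higher (343, 1921 and 1689).

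In iron and haem handling 6 of 24 genes were higher and 2 lower (median 0.35). HMOX1, which breaks down haem, gave 445, 18776 and 15509, 34.9-fold higher, and the iron importer SLC11A2 1064, 4036 and 3733. SLC40A1, the only known iron exporter of cells, gave 3164, 386 and 349.8 and was 9.04-fold lower. Of antioxidant genes 6 of 25 were higher, none lower (median 0.40), with GCLC, the first enzyme of glutathione synthesis, at 2942, 25652 and 26553 and NQO1 at 2818, 12256 and 11649.9. NFE2L2, the factor that these genes share, had a log2 ratio of 0.79. The NADPH oxidase list had 1 of 8 higher and none lower (median 0.11): CYBB, its membrane subunit, had a log2 ratio of 0.25. Oxidative phosphorylation genes had 0 of 39 past 2-fold in either direction and a median of -0.01. In glycolysis and hypoxia 6 of 36 were higher and 3 lower (median 0.02). The hexokinases went different ways: HK1 gave 2805, 6407 and 6585, HK2 3478, 5149 and 7189 and HK3 729.5, 39.9 and 37.6. HIF1A, the oxygen-regulated factor, gave 10779, 34412 and 31851, and LDHA (-0.08) and PGK1 (0.08) had log2 ratios near 0.

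Membrane carriers had 14 higher and 3 lower among 33 (median 0.62). The drug exporter ABCG2 gave 181, 3833 and 2207 and SLC16A10, which carries aromatic amino acids, 412, 7295 and 3298. SLC7A7, which exports cationic amino acids, gave 3258, 14425 and 10952, and its relative SLC7A5 had a log2 ratio of -0.08. The creatine carrier SLC6A8 was lower at 4001, 486 and 1454.

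Interferon-stimulated genes were higher in 19 of 41, lower in 1, with a median of 0.86. Many of these genes have in their promoter a short element, the interferon-stimulated response element (ISRE). The antiviral gene IFIT1 gave 1219.7, 18254 and 9552, IFI44 739, 7387 and 4711, IFIT3 1813, 12212 and 6727 and IFI6 5918, 28818 and 20849.9. Over the list the median signal was 1738 in undifferentiated cells, 6157 at PMA 3 days and 3957 at PMA 8 days, and 39 of the 41 had a lower signal at PMA 8 days than at PMA 3 days. IFITM1 was the 1 lower member (9537, 10527 and 4256). RSAD2 (0.69), MX1 (0.91) and IRF7 (-0.42) had log2 ratios within 2-fold. The interferon genes themselves were not in a list here. The letters of the ISRE, GAAA and again GAAA after any 2 bases on either strand, were in the promoters of 24 of 33 listed genes with one (72.7%), against 3.65% of all promoters and 2.87% of those of the genes compared. They are shown for IFIT1 (chr10:89392460-89392622, plus strand) and IFI44 (chr1:78649669-78649788, plus strand), the 2 members with the largest increase, with matches in capitals.
IFIT1: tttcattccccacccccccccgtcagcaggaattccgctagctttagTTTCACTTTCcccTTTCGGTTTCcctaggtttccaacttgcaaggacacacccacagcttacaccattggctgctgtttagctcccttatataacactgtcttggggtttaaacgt
IFI44: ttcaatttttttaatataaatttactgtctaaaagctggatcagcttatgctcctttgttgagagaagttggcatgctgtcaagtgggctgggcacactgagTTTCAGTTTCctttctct
Both IFIT1 matches and the IFI44 match read on the minus strand, and the IFIT1 matches are 3 bases apart.

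Guanylate-binding proteins and other targets of IRF1 had 7 higher and no lower member among 17 (median 0.75). GBP1 was far higher, GBP2 gave 739, 2187 and 2227 and GBP3 3226, 8083 and 7185, while GBP5 had a log2 ratio of -0.07 and IRF1 0.75. In MHC class I and peptide loading 5 of 20 were higher, none lower (median 0.54), with the peptide transporter genes TAP1 at 2284, 9272 and 9630.0 and TAP2 at 2429.8, 5343 and 5936, and B2M at a log2 ratio of -0.04. HLA class I genes are close in sequence, and a probe set may pick up its relatives. MHC class II genes, which present peptides from the lysosome to helper T cells, were lower in 7 of 17 and higher in 2 (median -0.49). HLA-DRA gave 18887, 6415 and 2029, HLA-DPA1 14108, 4536 and 1817, HLA-DQB1 3533, 961 and 576 and the invariant chain CD74 2969, 2200.0 and 1089. For each the signal was lowest at PMA 8 days. HLA-DRB1 had a log2 ratio of 0.02 and CIITA, the factor that these genes need, 0.45. The higher members were CTSS, the protease that trims the invariant chain (19038, 48028 and 41030.0), and HLA-DOA (69.2, 191 and 352).

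Of 25 chemokine genes 15 were higher and 1 lower (median 1.44). Among those that attract neutrophils, PPBP gave 4.49, 3249 and 5557, CXCL8 1006, 6570.1 and 4491, CXCL6 111, 1247 and 1285 and CXCL2 271, 3105 and 1122. Among those for T cells and monocytes, CCL5 was the brightest at 2590.1, 15994 and 18551, and the interferon-induced CXCL10 gave 208, 3398 and 1234. CXCL8, CXCL2 and CXCL10 had their highest signals at PMA 3 days, and PPBP and CCL5 at PMA 8 days. CCL2, a main monocyte attractant, had a log2 ratio of 0.36, and CCL28 was lower (667, 248 and 296). Receptors for chemokines and formyl peptides went both ways, 4 of 13 higher and 4 lower. FPR3 gave 109.7, 7203 and 3551, FPR1 837, 7759 and 4237 and the scavenging receptor ACKR3 328, 2110.3 and 1281. The lower ones were CCR2, which draws monocytes out of marrow (20869, 468 and 541), CXCR2 (3096, 344 and 593), CX3CR1 (9779, 2329.9 and 3181) and the leukotriene receptor LTB4R (1033, 382 and 411).

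Of interleukins and other cytokines 7 of 28 were higher and 4 lower (median 0.40). IL1B gave 889, 1977 and 3069, the growth factor HBEGF 622, 2812 and 3756 and IL10 18.4, 491 and 363. TNF had a log2 ratio of 0.35, IL6 0.00 and TGFB1 0.13. TNFSF13B (BAFF), a survival factor for B cells, was lower at 3814, 1915 and 853. In the interleukin-1 receptor and inflammasome list 6 of 20 were higher and 2 lower (median -0.14). The decoy receptor IL1R2 gave 110.2, 8799.8 and 5185 and the signalling receptor IL1R1 296, 1040.2 and 1435, whereas their shared partner IL1RAP was lower at 1915, 278 and 225. NLRP3 had a log2 ratio of -0.29 and CASP1 -0.12.

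Receptors that sense microbes moved unequally. Of toll-like receptor genes 8 of 24 were higher and 2 lower (median 0.24). LY96 (MD-2), which binds endotoxin for TLR4, gave 1036, 19678 and 14555, while TLR4 itself had a log2 ratio of -0.35 and TLR2 -0.39. Of receptors for nucleic acids TLR7 gave 156, 940.0 and 812 and TLR8 822, 6670.1 and 2749.9. IRAK3, an inhibitor of this signalling, was lower at 5265, 459.8 and 507, and LY86, the partner of CD180, was lower at 9154, 4561 and 2792 while CD180 was higher at 339.7, 1144 and 1629.8. Of Fc receptor and ITAM genes 4 of 20 were higher and 1 lower (median 0.11). TREM1 gave 189, 2083 and 1225 and TREM2, a lipid-sensing receptor, 4235, 19297 and 18236, and their adaptor TYROBP had a log2 ratio of 0.88. Of 19 complement genes 7 were higher and 2 lower (median 0.73, or 0.11 with members below the floor on both arrays at 0), with the anaphylatoxin receptors C5AR1 at 116, 5107 and 3500.2 and C3AR1 at 228, 5267 and 3734 and the shield CD59 at 2397, 15801 and 14670.4. CFD, the protease factor D, was lower at 46135, 4781 and 4417. Inhibitory receptors of the Siglec, LILR and SIRP families were higher in 10 of 23, lower in 3 (median 0.48). PILRA gave 613, 17288 and 8053 and SIGLEC7 389, 3078 and 2029.9, and the activating LILRA2 was lower at 6197, 1067 and 806. Costimulatory and checkpoint ligands had 7 higher and no lower member among 20 (median 0.60), among them CD48 (377, 4619 and 1955), the adhesion ligand ICAM1 (351, 1087 and 1283) and CD86 (2575, 11179.9 and 6225).

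**Figure D3:**
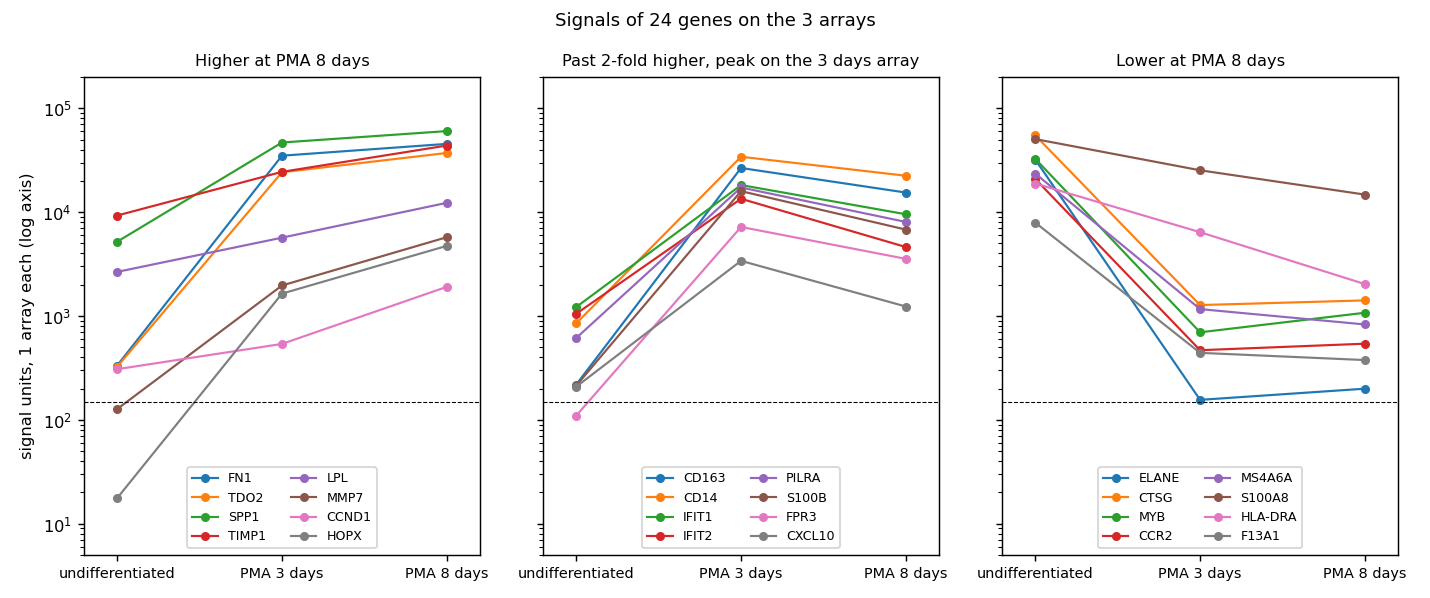
Signals (y axis, log scale) of 24 genes on the undifferentiated, PMA 3 days and PMA 8 days arrays (x axis), 1 array each, with the dashed line at the floor of 149.8. Genes in the left panel had their highest signal at PMA 8 days, those in the middle panel at PMA 3 days, and those in the right panel were at least 2-fold lower at PMA 8 days than in undifferentiated cells.

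The proteins that PMA acts on were set beside their targets. The list of protein kinase C and phorbol-binding genes also holds members that do not bind phorbol esters, such as MARCKS, MARCKSL1 and PRKCZ. In this list 4 of 23 were higher and 3 lower (median -0.50), so the counts are not of PMA-binding proteins alone. PKC isoforms differ in whether calcium and diacylglycerol activate them. Of the calcium-dependent ones PRKCA had a log2 ratio of -0.88 and PRKCB -0.90 by their brightest probe sets. The other probe set of PRKCA, a dim one, gave 0.98, and those of PRKCB ran from -1.43 to -0.62. PRKCD (-0.75) was within 2-fold, PRKCE was lower at 488, 334 and 158, and PRKCZ, an atypical form that does not respond to diacylglycerol, was lower at 1242, 398 and 307. The RASGRP proteins pass the diacylglycerol signal on to Ras and Rap. RASGRP3 was higher at 172, 841 and 1035, RASGRP1 at 10.9, 387 and 391, and RASGRP2 lower at 3878, 283 and 539 by its brightest probe set. A further 2 of its 4 probe sets, near or below the floor on all arrays, gave log2 ratios of 0.38 and 0.42. The remaining one was lower, at -1.52.

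In the immediate early list (AP-1, EGR and others) 6 of 21 were higher and 1 lower (median 0.56), at a time when PMA had been gone from the medium for 5 days. After PHLDA1 came MAFF (217, 1577 and 1725) and the stress factor ATF3 (276, 1297 and 1464). FOS (0.57), JUN (0.56) and EGR1 (-0.27) had log2 ratios within 2-fold. The AP-1 letters TGANTCA, on either strand, were in 1 of 17 promoters of this list (5.88%) and in 3 of 27 of the matrix list (11.1%), against 7.91% of all promoters and 5.20% of those of the genes compared. RGS proteins and phosphatases, which turn off G-protein and MAP kinase signals, had 11 higher and 1 lower among 27 (median 0.64). RGS2 gave 1683, 30161 and 22816, DUSP1 354, 7186 and 4128, the ERK phosphatase DUSP6 5653, 24326 and 25559 and the Ras pathway inhibitor SPRY2 2050.3, 6498 and 10516. RGS18, a form of blood cells, was lower at 9013, 340.3 and 387. NF-kB genes were higher in 9 of 21, lower in 1 (median 0.50). The survival gene BCL2A1 gave 82.6, 1895 and 3535, TNFAIP6 102, 3100.3 and 1666 and the inhibitor TNFAIP3 1860.3, 3649.5 and 4354, while the subunits NFKB1 (-0.06) and RELA (0.15) had log2 ratios near 0.

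In the BCL2 family and apoptosis list 5 of 29 were higher and 3 lower (median 0.22). BCL2A1 was far higher, MCL1 had a log2 ratio of 0.39 by its brightest probe set and BCL2L1 0.65. Other probe sets of MCL1 ran from 0.23 to 1.59, most of them past 2-fold higher. The next brightest gave 7134, 16540 and 16514, a log2 ratio of 1.21. BCL2, an inhibitor of cell death, gave 3667, 133 and 248 by its brightest probe set. The death-promoting BIK was lower at 6515, 1175 and 1335 and APAF1, the core of the apoptosome, at 5421, 2396 and 1891. Of p53 targets 7 of 17 were higher and 2 lower (median 0.40, or -0.27 by the second brightest probe set), with GDF15 at 141, 1215 and 847 and MDM2 lower at 6731, 1859 and 2615.

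Receptors for blood cell growth factors had 6 higher and 6 lower among 23 (median 0.54). The lower ones were FLT3, a receptor of progenitors (1478, 105 and 132), KIT (1831, 33.6 and 259.8), CSF3R (1836, 678 and 552), IL3RA (428, 52.9 and 31.9), CSF2RA (1507, 403 and 400.1) and IL6R (16675, 4269 and 3954). Among the higher ones besides CSF1R were IL4R (1218, 3430.2 and 4306) and IFNGR1 (13424, 41079.5 and 42485). Of the TGF-beta and activin pathway 7 of 29 were higher and 3 lower (median 0.12), with LTBP2 below the floor in undifferentiated cells and at 2035 at PMA 8 days, BMP2 at 274, 1289 and 1786 and SKI, a co-repressor of this pathway, lower at 3800.3, 1253 and 1445. Of semaphorins, plexins and neuropilins 5 of 20 were higher and 2 lower (median 0.43), with the co-receptors NRP1 at 940.2, 20653 and 16671 and NRP2 at 23.4, 1584 and 1562. In the STAT, SOCS and PIM list 1 of 22 was higher, STAT4 (308, 1485 and 1059), and 2 were lower, CISH (794, 256 and 189.6) and SOCS2 (374, 188 and 114). The lower share, 9.1%, was near the 8.39% of all genes.

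Azurophil granules are the stores of neutrophil-type proteases that promyelocytes fill. In the list of their genes and those of progenitors 11 of 18 were lower and none higher, with a median of -3.06, the lowest of the 66 lists. ELANE, neutrophil elastase, gave signals of 32064, 156 and 199, 161-fold lower, and lay close to the floor on both PMA arrays. So did azurocidin, AZU1 (12788, 239 and 218), and MS4A3 (6936, 125 and 231). Cathepsin G, CTSG, gave 54870.4, 1274 and 1413 and proteinase 3, PRTN3, 2544, 4.02 and 46.5. MPO, the myeloperoxidase of the same granules, had a log2 ratio of only -0.81, and SRGN, the proteoglycan that packs them, of -0.56. Of genes outside this list, CACNA2D3, an accessory subunit of calcium channels, gave 7855, 182 and 273. Genes that fell below the floor from bright signals included SERPINB10, a serpin of blood-forming cells (2055, 20.9 and 29.9), and the neural adhesion molecules CNTN4 (1574, 104 and 96.4) and NEGR1 (1572, 49.7 and 108).

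Monocyte markers were lower in 9 of 15 and higher in 3 (median -1.62). The higher ones were CD14, which is also among the macrophage markers, CSF1R and LILRB2 (451, 2164 and 1747). The calcium-binding alarmins S100A8, S100A9 and S100A12 gave 50595, 25328 and 14772, 38822, 18816 and 10572 and 9001, 3123 and 1468, each lower on both PMA arrays and lowest at PMA 8 days. MNDA, a nuclear antigen of the myelomonocytic line, gave 17416, 9377 and 5582, and the lectin CLEC12A 1025, 17.5 and 135. Other S100 genes went up: S100B gave 214, 15944 and 6796 and S100A16 458, 4612 and 7354, and in the whole S100 list 4 of 14 were higher and 3 lower (median 0.50, or -0.34 by the second brightest probe set). MS4A6A, a membrane protein of monocytes, gave 23522, 1165 and 829.

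Transcription factors of the myeloid line were lower in 11 of 39 and higher in 8 (median -0.11). MYB, which keeps progenitors dividing, gave 32633, 696 and 1074, the granulocyte repressor GFI1 6206, 113 and 349, the monocyte factor IRF8 23399, 1688 and 2199 and CEBPA, which starts the granulocyte and monocyte line, 13606, 2089.6 and 3760.2. CEBPB was higher at 5963, 16382 and 14436, MAF, a factor of mature macrophages, at 1738, 7089.5 and 5032 and BHLHE41 at 36.6, 4418 and 5966. KLF4 (-0.54) and KLF2 (-0.14) had log2 ratios within 2-fold. The letters GAGGAAGT, bound by PU.1 and searched on both strands, were in 0 of 17 promoters of macrophage markers and in 1 of 13 promoters of the progenitor list (7.69%), against 2.52% of all promoters. In the HOXA and MEIS list 8 of 22 genes could be compared. MEN1 was lower (1090.5, 541 and 458), the other 7 were within 2-fold, and most HOXA genes were not analysed here.

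MYC, the driver of growth and ribosome synthesis, gave 9225, 1767 and 2453, 3.76-fold lower. In its network 4 of 11 were lower and none higher (median -0.81), the others being MGA (3234, 1320.3 and 1160.1), MNT (1838, 1596 and 711; its next probe set gave a log2 ratio of 0.40) and MXD3 (1192, 347 and 481). MXD1, an opponent of MYC, had a log2 ratio of 0.92. Ribosome biogenesis genes were lower in 3 of 30 (10%, near the 8.39% of all genes) and higher in none, with a median of -0.43. Fibrillarin, FBL, was among the lower ones (13737, 5019.8 and 5372). The 30 ribosomal protein genes measured had log2 ratios of -0.77 to -0.13 and none was past 2-fold. Folate, serine and nucleotide synthesis genes were lower in 3 of 22 and higher in none (median -0.29), with IMPDH2, which limits guanine nucleotide synthesis, at 23991, 9892 and 10639.

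Mitotic genes were moderately lower, and most of them were within 2-fold. Of 58 G2/M genes 10 were lower and none higher, with a median of -0.57, and 56 of the 58 had a log2 ratio below 0. Over the list the median signal was 5582 in undifferentiated cells, 1786 at PMA 3 days and 3084 at PMA 8 days, and 57 of 58 had a higher signal at PMA 8 days than at PMA 3 days. PLK1, the polo-like kinase of mitotic entry, gave 551, 193 and 155 and was the exception. The kinesins KIF20A and KIF15 gave 5495, 862 and 1772 and 3773, 1017 and 1603. CDK1, the kinase that drives mitosis, was within 2-fold at 23218, 7404 and 17378, and so was the proliferation marker MKI67 at 4819, 1581 and 2739. Of 53 G1/S and replication genes 8 were lower and none higher (median -0.46). CDT1, which licenses replication origins, gave 5383, 1822 and 1553, and the helicase subunit MCM7 8228, 1976 and 3111, while CCNE2 had a log2 ratio of 0.00 and PCNA of -0.44. DNA repair genes were lower in 3 of 32 (9.4%, near the 8.39% of all genes) and higher in 1 (median -0.28).

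The promoters of many mitotic genes hold the cell cycle homology region (CHR), TTTGAA, together with CCAAT boxes, letters that the MuvB complexes and NF-Y bind. TTTGAA was in 35 of 49 G2/M promoters in the table (71.4%), against 15.6% of all promoters and 10.6% of those of the genes compared. CCAAT was in 39 of the 49 (79.6%), against 35.6% and 36.1%. Both were searched on both strands, and no match of TTTGAA holds CCAAT. The promoters of PLK1 (chr16:23678769-23678888, plus strand) and KIF15 (chr3:44761674-44761793, plus strand) are shown up to the start as 2 of the G2/M genes that were past 2-fold, with TTTGAA or its reverse in capitals.
PLK1: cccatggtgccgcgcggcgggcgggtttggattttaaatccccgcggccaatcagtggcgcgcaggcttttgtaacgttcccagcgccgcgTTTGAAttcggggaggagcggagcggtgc
KIF15: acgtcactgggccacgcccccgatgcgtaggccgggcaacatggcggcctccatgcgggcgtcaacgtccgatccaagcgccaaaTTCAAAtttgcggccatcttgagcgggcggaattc
The element starts 29 bases before the start of PLK1 and 35 before that of KIF15.

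Of regulators of the step from G1 to S, 5 of 27 were higher and 2 lower (median -0.27). CDKN1A, the inhibitor p21, gave 1601, 6941 and 9286 and CDKN1C, the inhibitor p57, 531, 2769.8 and 1338 by its brightest probe set. The other probe sets of CDKN1C were within 2-fold, at log2 ratios of -0.13 to 0.62. Cyclin D1, CCND1, gave 307, 538 and 1908, and most of that increase lay on the PMA 8 days array. CCND2 (-0.84) and CCND3 (-0.17) had log2 ratios within 2-fold. The kinase CDK6, a partner of D cyclins, was lower at 20460.4, 7509.7 and 7746. The antiproliferative genes BTG1 and TOB1 gave 12195, 42187 and 37406 and 10162, 36566 and 33198.

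Histones package the DNA that S phase makes. Of 14 canonical histone genes 9 were higher and none lower, with a median of 1.91. With 2 replacement histones, H2AX (-0.13) and H2AZ1 (-0.10), both at log2 ratios near 0, the list held 16 genes and its median was 1.43. The linker histone H1-2 gave 393, 4009 and 5415, H2AC6 770.3, 12381 and 9059, H2BC12 3149, 23760.0 and 21122 and H2BC21 401, 2888 and 2313. In all of these both PMA arrays were at least several times the undifferentiated array. Most replication-dependent histone messages end in a stem-loop without a poly-A tail. How the labelling was primed is not given in the sources used here, and its part in the histone signals was not tested. Histone genes of one class are also close in sequence, so that probe sets can share signal.

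**Figure D4:**
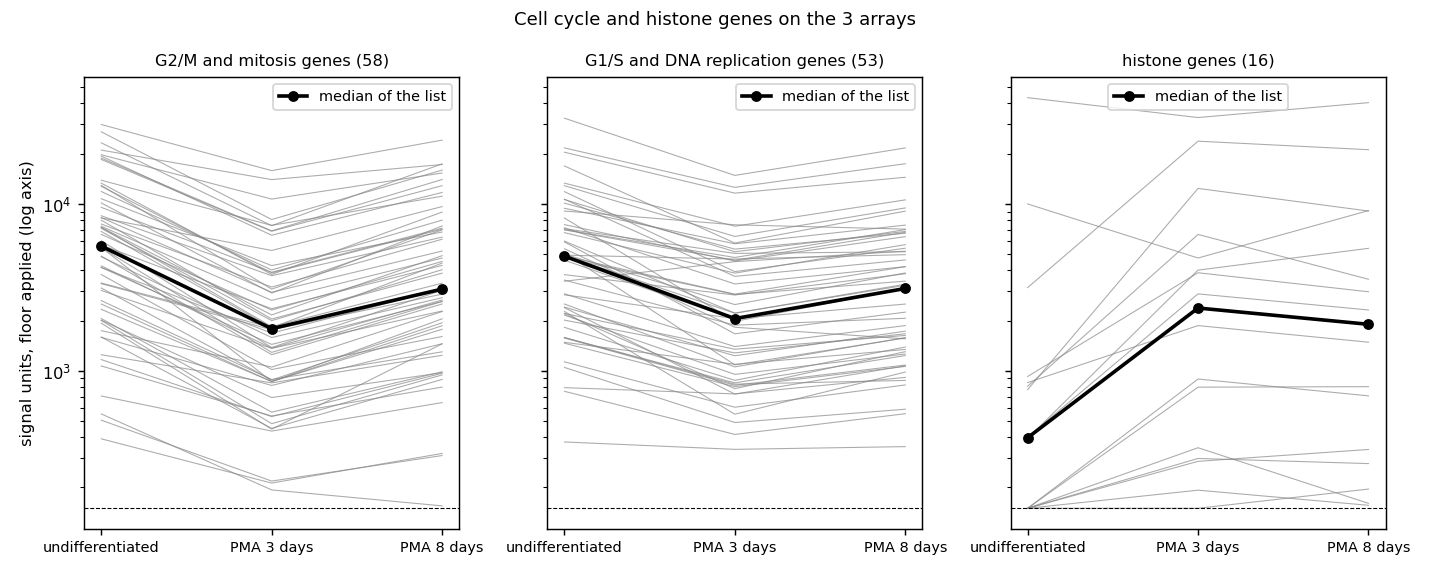
Signals (y axis, log scale, floor of 149.8 applied) on the 3 arrays (x axis) for the 58 G2/M, 53 G1/S and 16 histone genes compared; each grey line is a gene and the black line joins the list's median on each array. The median of the G2/M genes is lowest at PMA 3 days and stands at 3084 at PMA 8 days, against 5582 in undifferentiated cells, and the median of the histone genes is higher on both PMA arrays.

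Metallothioneins are small proteins that hold zinc and copper. Of 7 that could be compared 6 were lower. In the list of 17 that also holds zinc carriers, 6 were lower and 1 higher (median -0.33). MT1E gave 16162, 1152 and 1864, MT1F 9641, 1340.2 and 1814, MT1X 9138, 1645 and 2372, MT1H 8094, 1956 and 2649, MT1G 5454, 1062 and 1794 and MT2A 10968, 4073 and 5148. All 6 had their lowest signal at PMA 3 days. These genes are near copies, so their probe sets can share signal. MTF1, the zinc sensor that drives them, had a log2 ratio of -0.12 and the zinc exporter SLC30A1, another of its targets, -0.56. The higher gene was the zinc carrier SLC30A4 (253, 865 and 706). The core of the metal response element, TGCNCNC, is so short that 55% of all promoters hold it on either strand. It was in all 3 metallothionein promoters in the table, up to 8 times, and is in capitals where it lies in the last 120 bases before the start of MT1X (chr16:56682350-56682469, plus strand).
MT1X: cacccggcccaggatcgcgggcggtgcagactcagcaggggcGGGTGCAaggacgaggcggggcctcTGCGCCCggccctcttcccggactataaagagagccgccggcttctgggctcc

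Markers of other cell types were followed because a culture of a single cell line should lack many of them. Of 18 lymphoid markers with a probe set, 10 were below the floor on both arrays, among them the T cell receptor genes CD3D, CD3E and CD3G. GNLY (granulysin) gave 138, 1296 and 3359 and IL7R 174, 331 and 452. Of 17 fibroblast, epithelial and endothelial markers 8 were below the floor on both, among them EPCAM, CDH5 and VWF. The other 9 included FAP, a surface protease of activated fibroblasts, at 102, 2168 and 3422 and PDGFRA at 8.48, 923 and 961. Of 18 granulocyte markers 9 were below the floor on both arrays, CEACAM6 was lower (1339, 307 and 144), and MMP8 is described above. Of erythroid and megakaryocyte markers 7 were measured, and PPBP, shared with the chemokine list, was the 1 past 2-fold. Dendritic cell markers were higher in 4 of 13, lower in 3 (median -0.01). The lipid-presenting molecules CD1A, CD1C and CD1E gave 294, 1248 and 1162, 750.0, 2509.8 and 2618 and 258, 1857 and 1435, and CD1D had a log2 ratio of -0.28.

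The only spread that could be measured was that between probe sets of 1 gene. Over 5414 genes with several probe sets above the floor on both arrays it gave an SD of a log2 ratio of 0.45, and for the median gene 0.29. It covers no difference between cultures or labellings and can hold real differences between transcripts. Of 1225 called genes with several probe sets above the floor on either array, all went the same way in 1041, all were past 2-fold in 458, and in 7 another probe set was past 2-fold the opposite way. All 7 probe sets of MS4A6A were lower, at log2 ratios of -5.10 to -2.30. All 7 of FN1 were above 0, from 0.44 to 8.21. For BCL2 the 3 probe sets gave -3.89, -0.78 and 0.08, and for A2M 5.97 and -0.28. The other probe set of A2M was near or below the floor on all arrays. The 12 probe sets of CFLAR, an inhibitor of caspase-8 with many splice forms, ran from -0.71 to 1.63.

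**Figure D5:**
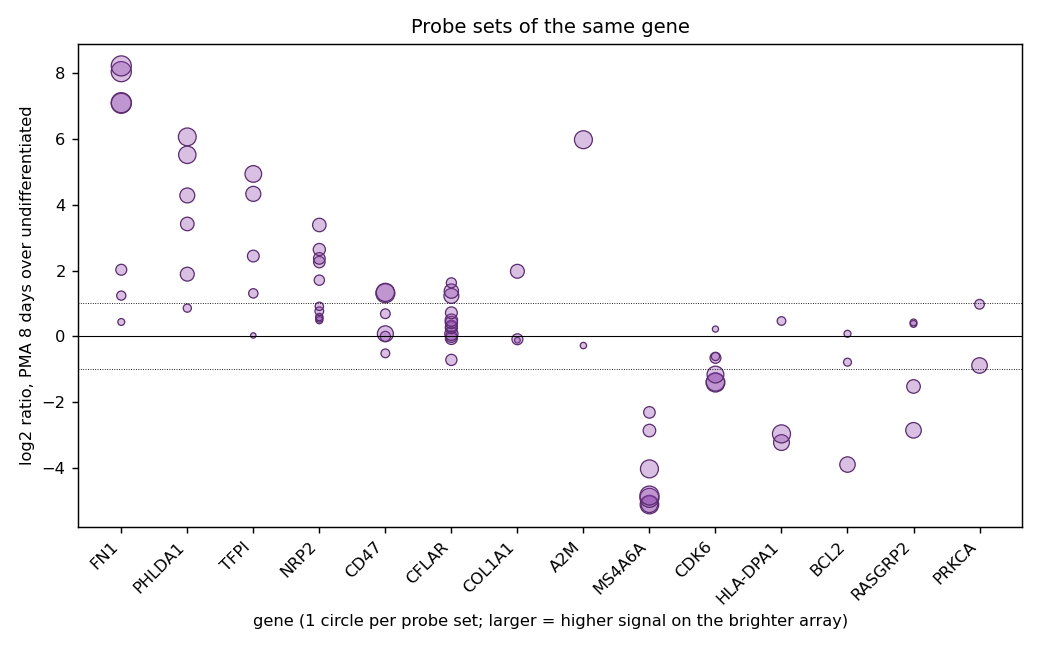
Log2 ratios of PMA 8 days over undifferentiated (y axis) of every probe set of 14 genes (x axis); 1 circle is 1 probe set, larger where its brighter array had more signal, with dotted lines at 2-fold. The probe sets of MS4A6A lie together between -5.10 and -2.30, while those of BCL2 and A2M spread across 0 with the dim ones nearest to it.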

How the data were processed

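Each of the 3 cultures gave 1 biotin-labelled, 1-colour oligonucleotide array made from 200 ng of total RNA, per the labels' protocols. The deposited intensity values were made with MAS5, per the submitters' processing notes. Its version, scaling and detection calls are not given in the sources used here. From the values, the scale is linear and each array has a mean near 1000 once 2% is left out at either end.

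Of 54613 probe sets that were not controls, the platform annotation gave 41091 a single gene, 1801 several genes and 11721 no gene, and only the first kind was named. By Entrez ID, 41037 of them matched the RefSeq gene table (GRCh38.p14). The probe set with the highest mean log2 signal over the 3 arrays stood for a gene. Signals were raised to a floor of 149.8 before log2 ratios were taken, and a gene was compared if above it on either array. With 1 array a side no test was made, and the number of arrays limits the precision. Promoters from RefSeq were searched on both strands.

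Genes named are, per direction, the 10 largest measured ratios with all probe sets going the same way and the 5 brightest from or to the floor, and per list members out of the 4 furthest past 2-fold in each direction, the brightest and the one nearest to no change, not all of which are given. Further list members were named after their values were seen. The members and lists were chosen with earlier results of these data known. Under this rule, 1 gene with a large increase is left unreported, as are results for 1 of the lists. Alternatives changed the floor, the filter, the choice of probe set and the scaling. The steps were tested on simulated data. Python 3.11.15, numpy 2.4.6, pandas 2.3.3 and matplotlib 3.10.9 were used.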

Additional observations from a re-analysis of the deposited data

How the results depend on the processing

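No paired analysis was possible because each condition had 1 array and no test was made. The 1320 higher and 1140 lower genes ranged from 927 to 1558 and from 827 to 1380 under the other settings, apart from 1. Taking each gene's second brightest probe set, which could be done for only 6590 genes, gave 606 higher and 567 lower. Higher genes stayed within 10 percentage points of 53.7% of the calls under every setting, and scaling moved the median of all genes to between -0.09 and 0.00. Of 293 genes named in the text that were past 2-fold, 246 were still so by the median of their probe sets, and 11 were at 0. By the second brightest probe set, which 158 of them had, 121 were still past 2-fold and 3 changed direction. After quantile normalization 292 were still past 2-fold, and 293 after scaling to the poly-A controls. Many of these genes were named for the size of their change, so small shifts of scale could hardly undo the calls.

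Some named genes changed direction. By the second brightest probe set the log2 ratio was -0.28 for A2M, 0.080 for BCL2 and 0.40 for MNT. Without probe sets whose design allows cross-matching (IDs ending in _x_at or _s_at) it was -0.0026 for CFLAR and 0.38 for RASGRP2. Of 66 list medians 43 stayed within 0.5 of the reported value under each setting and 23 did not. Without a filter on low values, members below the floor on both arrays count at 0. The median then became 0.00 for scavenger receptors and for chemokine receptors, 0.11 for complement, 0.81 for chemokines, 0.80 for histones, -0.13 for the MYC network, 1.46 for macrophage markers and -1.43 for progenitor genes. By the second brightest probe set it was 0.58 for matrix genes, 1.34 for complement, 1.73 for eicosanoid enzymes, 1.38 for NF-kB genes, -0.47 for chemokine receptors, -0.02 for the MYC network, 0.67 for histones, -1.15 for progenitor genes, -0.14 for tetraspanins, -0.34 for S100 genes and -0.27 for p53 targets. By the median of all probe sets it was 0.14 for lipid genes and 0.01 for immediate early genes. Over genes above the floor on both arrays it was -1.06 for MHC class II, 0.88 for dendritic cell markers and 2.13 for histones, and with the higher floor 1.35 for RGS proteins and phosphatases. Without the cross-matching probe sets macrophage markers gave 1.40 and the metallothionein and zinc list 0.20. The cause of the other shifts was not tested. Signals near the floor limit the size of folds.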

Other observations

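Of the 2460 genes past 2-fold, 1953 were in none of the 66 lists. The genes named here were chosen from these for the size of their change after the values were seen. Several that were higher encode secreted or surface proteins of wound and matrix biology: IGFBP3, a carrier of insulin-like growth factors (434, 12496 and 15826), the serine protease gene PRSS23 (95.4, 7768 and 7416), GREM1, which binds bone morphogenetic proteins (6.33, 2759 and 2877), the collagen gene COL7A1 (130.1, 2066 and 2548) and MMP3 (stromelysin-1, 54.2, 418 and 2221). Others act in cell shape or signalling: MTSS1, which bends membranes at actin sheets (819.8, 28155 and 33154), EPS8 (938, 12332 and 13907) and the small GTPase gene GEM (101, 5008 and 5010.4). IL13RA2, a decoy receptor for interleukin-13, gave 5.86, 3867 and 4803 and HAVCR2 (TIM-3) 211, 2911 and 3445. HOPX, a homeodomain protein that does not bind DNA, gave 17.6, 1642 and 4735, with its highest signal at PMA 8 days. HMGA2, a chromatin protein of growing tissues, gave 9.78, 2395 and 2952.

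Genes outside the lists that were lower included further secreted defence proteins of neutrophil and eosinophil precursors, SLPI (9605, 758 and 752) and RNASE2 (53688, 8458 and 5409), and PLAC8 (38697, 3128 and 3171). The retinol dehydrogenase gene DHRS9 gave 23594, 462 and 423 and the carboxylesterase gene CES1, abundant in monocytes, 30745, 3808 and 3205. HSD11B1, which makes active cortisol, gave 2065, 207 and 168. Transcription and chromatin genes were among them: IRX3 (30555, 2145 and 2493), BCL11A (6220.5, 1294 and 739) and the DNA demethylase TET1 (1271, 70.4 and 109). The kinase PIK3CD gave 9038, 694 and 961, and the receptor genes GPR160 and GPR18 gave 31866, 622 and 698 and 5551, 414 and 500.2.

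Probe sets for which the platform table lists no gene were more often lower than higher, though most stayed within 2-fold. Of 4333 that were above the floor on either array, 160 (3.69%) were higher and 610 (14.1%) lower, with a median log2 ratio of -0.28. Probe sets with 1 gene gave 9.20% and 8.80% and a median of -0.08. Within probe sets of middling brightness the unnamed ones gave 6.09% and 26.1%, and those with 1 gene 11.7% and 12.6%. What these transcripts are was not analysed here.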
